A study of Mus musculus with 6 samples.

Results

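The genes described here are those of blood and lymphatic endothelium, the cells that line vessels, together with the VEGF and angiopoietin ligands that act on them. A list of 46 gene symbols was matched to the array annotation, and all 46 had a probe set annotated to that symbol alone, out of 18193 genes measured this way. Each gene was read on its brightest probe set, and the 35 further probe sets of these genes served as a check.

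The samples were dorsal and lateral prostate lobes of intact male TRAMP mice, F1 offspring of C57BL/6 TRAMP and FvB parents. TRAMP mice express the SV40 T antigens from a probasin promoter active in prostate epithelium, so all 6 mice carried the tumour-driving transgene, and there was no transgene-free group. The 3 treated mice received OSU-CG5, a compound known by its code name, at 100 mg/kg daily by oral gavage from 6 to 10 weeks of age, and the 3 control mice received vehicle over the same 4 weeks. Lobes were collected 2 to 4 h after the final dosing, and the RNA of each mouse was read on 1 array, so that 3 arrays per group limit the precision of every value below.

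As background, vessels grow and are kept up by 2 linked ligand systems. VEGF ligands bind tyrosine kinase receptors on endothelium, VEGF-A acting mainly on blood vessels through Kdr and VEGF-C on lymphatic vessels through Flt4. Angiopoietin 1 activates the receptor Tek and steadies vessels, while angiopoietin 2 can oppose it. Endothelial identity is held by ETS factors such as Erg and Fli1 and by the SoxF factors Sox7, Sox17 and Sox18, and lymphatic identity by Prox1. In the prostate this vascular bed runs through the stroma between the secretory glands.

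The labelled tissue was checked on the prostate secretory gene Pbsn, which read 13.28 to 13.91 on all arrays (log2 RMA values, the scale of all levels here). Vehicle replicate 2 stood apart, with correlations of 0.966 to 0.981 with the other arrays over all probe sets. It also held seminal vesicle transcripts, whose mean over 6 genes was 7.91 there and 3.56 to 5.08 on the other arrays. As a measure of RNA integrity, the Gapdh control probe sets differed between the 3′ and 5′ ends by 2.89 ± 0.16 in treated mice and 2.39 ± 0.32 in controls (SD, n = 3 each; exact permutation test, two-sided, p = 0.2, where 0.1 is the smallest possible). The part of these features in the differences below was not tested, and values without vehicle replicate 2 are given beside the main counts.

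Vessel genes as a group read lower after OSU-CG5, by small amounts, and no single gene passed the adjusted threshold. Several lists of markers of other cell types, described further below, read lower by as much or more at their medians. Of the 46 genes 45 had a lower mean in treated mice, beside 65.7% of all genes, and Vegfa was the exception. Their median difference, OSU-CG5 minus vehicle, was -0.27 on the log2 scale, against -0.09 over all genes. The vessel genes were dimmer, with means of 5.24 to 5.69 per array beside 6.35 to 6.45 over all genes. Both medians depended on the setting. At a minimum mean of log2 6 they were -0.24, over 15 vessel genes, and -0.023. With cyclic loess normalization they were -0.20 and -0.043. The largest differences were those of Lyve1 (-0.97), Flt4 (-0.73), Mmrn1 (-0.65) and Cldn5 (-0.64), the 4 genes that read at least 1.5-fold lower, beside 0.616% of all genes. In bulk tissue, fewer endothelial cells and less RNA per endothelial cell cannot be told apart.

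With limma p-values adjusted across the 45037 probe sets (Benjamini-Hochberg), 0 of the 46 genes had an adjusted p under 0.05, and 0 probe sets (0%) did in all. The smallest adjusted p among these genes was 0.136, for Flt4. At an unadjusted p under 0.05, 15 of 46 (32.6%) were lower, beside 8.43% of all genes, and 0 were higher, beside 5.4%. The 2 groups did not overlap for 17 genes (37.0%), all of them lower with OSU-CG5, where 14.2% of all genes were lower and 8.1% higher without overlap. An ordinary linear model and an intensity trend with a robust prior also gave 0 adjusted calls among the members. Array quality weights gave 2, Flt4 and Mmrn1, where 121 of all 18193 genes passed. Without vehicle replicate 2, 42 of 46 read lower, and 12 passed the unadjusted threshold downward, beside 6.58% of all genes. In that setting 1 passed the adjusted threshold, Flt4 (limma adjusted p = 0.0496), where 32 of all 18193 genes passed. Without OSU-CG5 replicate 3, 7 passed the unadjusted threshold downward, beside 4.16% of all genes.

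**Figure D1:**
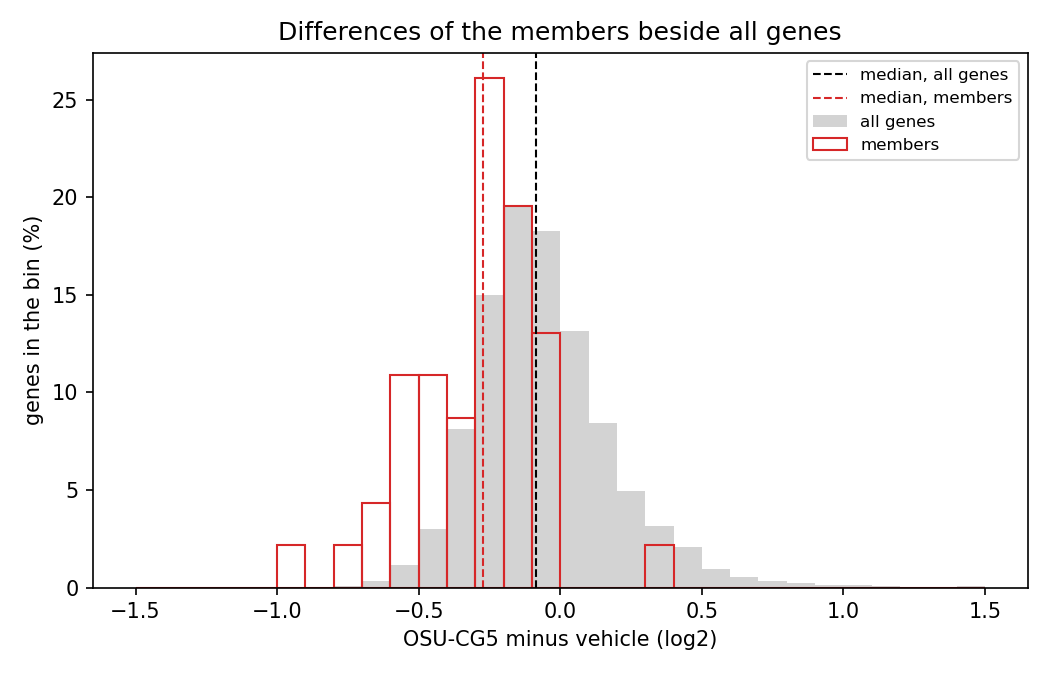
Share of genes per bin of 0.1 in the OSU-CG5 minus vehicle difference (x axis, log2; y axis, percent), for all 18193 genes in grey and the 46 vessel genes in red outline, with both medians as dashed lines. The 7 genes beyond 1.5 in size are counted in the outermost bins; the vessel genes centre on -0.27 and all genes on -0.09.

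**Figure D2:**
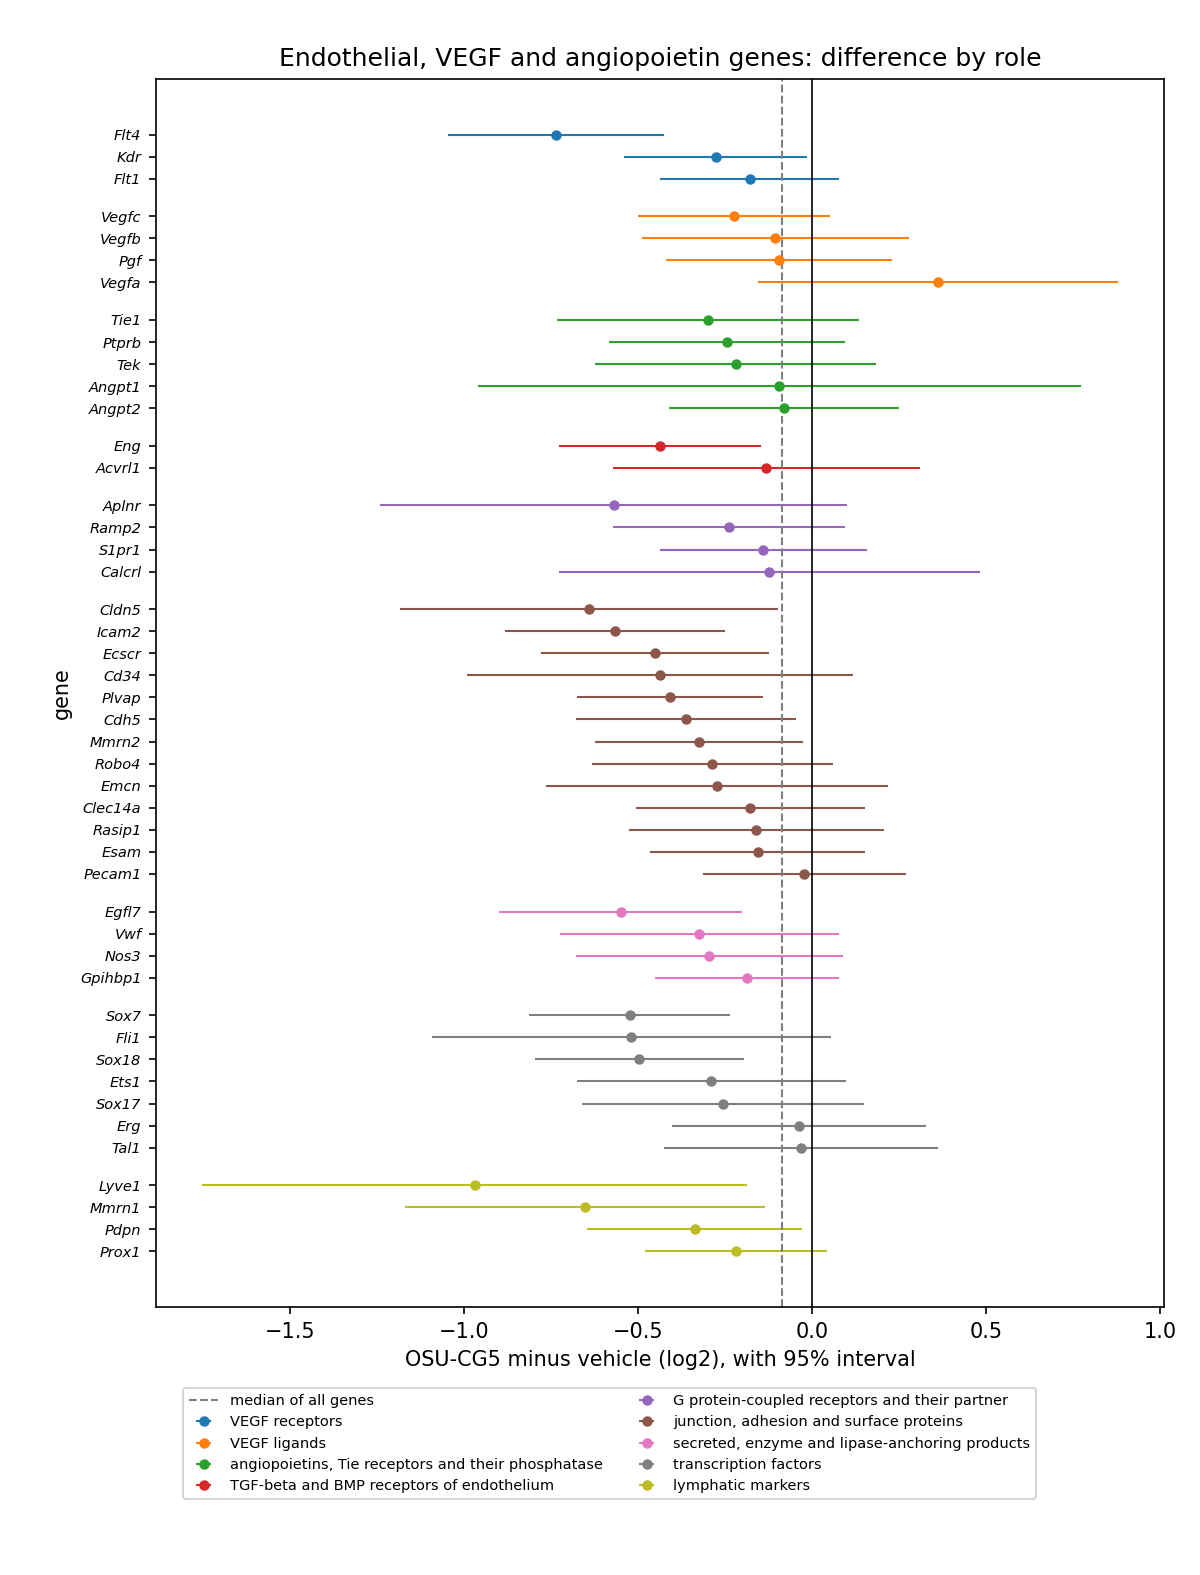
Difference of each of the 46 genes between OSU-CG5 and vehicle (x axis, log2, n = 3 per group) with its 95% interval from limma, arranged by role (y axis). All points but Vegfa lie below 0, and the intervals of 15 genes exclude 0 before adjustment.

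On their brightest probe sets, all 3 VEGF receptors read lower on every treated array than on any vehicle array, beside 14.2% of all genes. Flt4, the receptor of VEGF-C and VEGF-D on lymphatic endothelium, read 6.09, 6.16 and 6.44 in the vehicle mice and 5.62, 5.46 and 5.40 in the treated mice (replicates 1, 2 and 3 throughout). The gap between the highest treated and the lowest vehicle value was wider than the range within either group. The difference was -0.73 (SE 0.14; limma adjusted p = 0.136), a 1.66-fold lower signal. Kdr, the main signalling receptor for VEGF-A, read 7.02, 7.06 and 6.90 in vehicle and 6.82, 6.67 and 6.67 with OSU-CG5, a difference of -0.28 (SE 0.11; limma adjusted p = 0.289). Flt1, which binds VEGF-A tightly and can act as a decoy, read 5.75, 5.83 and 5.72 in vehicle and 5.48, 5.64 and 5.63 with OSU-CG5. Its difference of -0.18 (SE 0.11) did not pass the unadjusted threshold. Its 3 other probe sets all had overlapping groups, at -0.11 (SE 0.16), 0.09 (SE 0.13) and -0.11 (SE 0.12), and the mean over its probe sets differed by -0.077.

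Each VEGF receptor and Eng, a co-receptor described below, read lower without overlap on its brightest probe set and has 1 listed start site. Whether these genes share regulation was not tested. The 250 bases upstream of their start sites are shown for that reason. They are RefSeq sequences of build GRCm38.p6, at chr11:49609429-49609678 on the plus strand for Flt4, chr5:75978456-75978705 on the minus strand for Kdr, chr5:147726012-147726261 on the minus strand for Flt1 and chr2:32646345-32646594 on the plus strand for Eng. Capitals mark the letters AGGAAG (or CTTCCT on the other strand), a core that ETS factors bind.
Flt4: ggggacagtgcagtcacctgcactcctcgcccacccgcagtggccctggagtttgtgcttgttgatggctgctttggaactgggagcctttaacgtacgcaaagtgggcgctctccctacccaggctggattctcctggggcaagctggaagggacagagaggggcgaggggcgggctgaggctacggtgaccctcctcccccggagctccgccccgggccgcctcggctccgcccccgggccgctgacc
Kdr: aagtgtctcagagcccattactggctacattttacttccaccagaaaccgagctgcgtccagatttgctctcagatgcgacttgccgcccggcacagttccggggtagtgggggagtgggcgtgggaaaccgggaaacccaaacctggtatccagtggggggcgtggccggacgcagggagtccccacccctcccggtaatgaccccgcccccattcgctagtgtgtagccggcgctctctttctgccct
Flt1: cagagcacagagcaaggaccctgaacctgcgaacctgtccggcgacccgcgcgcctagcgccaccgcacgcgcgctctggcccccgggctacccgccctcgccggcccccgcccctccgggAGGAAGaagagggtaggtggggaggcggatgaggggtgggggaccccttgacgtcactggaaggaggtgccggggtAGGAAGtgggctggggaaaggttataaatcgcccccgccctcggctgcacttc
Eng: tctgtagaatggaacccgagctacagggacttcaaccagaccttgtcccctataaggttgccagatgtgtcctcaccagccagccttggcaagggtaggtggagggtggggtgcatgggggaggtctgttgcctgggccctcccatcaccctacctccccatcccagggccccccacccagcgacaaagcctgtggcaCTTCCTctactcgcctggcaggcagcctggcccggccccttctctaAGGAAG
Flt1 and Eng held 2 such matches each, while the windows of Flt4 and Kdr held none. A SOX core, ACAAT, and a core bound by hypoxia-inducible factors, ACGTG, were also searched on both strands and were in none of the 4 windows, and no matches overlapped. Of the 46 genes 23 had an entry in the RefSeq table, with 31 windows. The ETS core was in 11 of these windows, beside 29.5% of all 32851 windows of the same length, the SOX core in 9, beside 27.7%, and the core of hypoxia-inducible factors in 3, beside 16.6%. Only these exact letters were searched, and other forms of the 3 cores were not counted. A match is a run of letters and not a measured binding site.

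The VEGF ligands gave no shared direction. Vegfa, the main hypoxia-induced growth factor of blood vessels, read 6.23, 5.96 and 6.86 in vehicle and 6.89, 6.5 and 6.75 with OSU-CG5. The groups overlapped, since vehicle replicate 3 reached the treated range, and the difference was 0.36 (SE 0.23; 95% interval -0.15 to 0.88). Without vehicle replicate 3 it was 0.62, past the unadjusted threshold, while the gene's other probe set differed by -0.23 (SE 0.13). Vegfc, the ligand of Flt4, read 7.24, 7.45 and 7.19 in vehicle and 7.02, 7.05 and 7.13 with OSU-CG5. All treated values lay below all vehicle values on that probe set, with a difference of -0.22 (SE 0.12), whereas the 2 other probe sets differed by 0.11 (SE 0.12) and -0.20 (SE 0.13). Vegfb, linked to lipid uptake by endothelium, read 6.35, 7.0 and 6.66 in vehicle and 6.52, 6.57 and 6.62 with OSU-CG5. Its treated values all fell within the vehicle range, and the 95% interval of its difference ran from -0.49 to 0.28. Placenta growth factor, Pgf, a ligand of Flt1, read 4.91, 5.01 and 4.83 in vehicle and 4.69, 5.08 and 4.70 with OSU-CG5, and the groups overlapped. The median over the 4 ligands was -0.10, and 0.0077 without vehicle replicate 2. Whether ligands and receptors differed from each other was not tested.

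Angiopoietins and the Tie receptors were all lower on average, with overlapping groups for each of them. Angpt1, the ligand that activates Tek, read 7.69, 6.44 and 7.88 in vehicle and 7.77, 7.05 and 6.91 with OSU-CG5. It was the least settled member, with a 95% interval from -0.96 to 0.77. Vehicle replicate 2 was its lowest array, and without it the difference was -0.54 and passed the unadjusted threshold. On its second probe set all treated values lay below all vehicle values, at -0.32 (SE 0.12). Angpt2, the context-dependent antagonist, read 6.62, 6.64 and 6.42 in vehicle and 6.33, 6.38 and 6.73 with OSU-CG5, a difference of -0.08 (SE 0.14). Tek read 4.58, 4.94 and 4.93 in vehicle and 4.86, 4.64 and 4.29 with OSU-CG5. Tie1, its partner receptor, read 3.87, 4.42 and 3.70 in vehicle and 3.67, 3.84 and 3.58 with OSU-CG5. Treated and vehicle arrays were interleaved for both receptors, with differences of -0.22 (SE 0.18) and -0.30 (SE 0.19). Ptprb, the endothelial phosphatase that restrains Tek, differed by -0.24 (SE 0.15), and its 2 other probe sets by -0.28 and 0.32. The median over these 5 genes was -0.22, and -0.10 without vehicle replicate 2.

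Receptors for other signals numbered 6, all below 0, and 1 had separate groups, a share near the 14.2% of all genes. Eng, which assists TGF-beta family receptors on endothelium, read 7.22, 7.21 and 6.93 in vehicle and 6.62, 6.76 and 6.67 with OSU-CG5. Its groups were separate, and the difference was -0.44 (SE 0.13; limma adjusted p = 0.19). Acvrl1, the receptor that endoglin assists, differed by -0.13 (SE 0.19) with overlapping groups. The 4 genes of G protein-coupled signalling, all with overlapping groups, were the apelin receptor Aplnr (-0.57, SE 0.29), the sphingosine-1-phosphate receptor S1pr1 (-0.14, SE 0.13), and Calcrl (-0.12, SE 0.26) with its partner Ramp2 (-0.24, SE 0.15), which together form the adrenomedullin receptor. Aplnr ranged from 4.62 to 5.86 within the vehicle group alone, and its other probe set differed by -0.02.

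Junction, adhesion and surface proteins made the largest role group, with 13 genes, all lower on average, a median of -0.32, 6 past the unadjusted threshold, beside 8.43% of all genes, and 5 without overlap, beside 14.2%. Cdh5, the cadherin of endothelial junctions, read 5.32, 5.49 and 5.08 in vehicle and 5.03, 4.96 and 4.83 with OSU-CG5. The groups lay just apart, and the difference was -0.36 (SE 0.14; limma adjusted p = 0.261), the same as on its second probe set. Icam2, a ligand for leukocyte integrins, read 5.43, 5.69 and 5.35 in vehicle and 5.0, 5.01 and 4.77 with OSU-CG5. Its difference was -0.57 (SE 0.14; limma adjusted p = 0.163). Plvap, which builds the diaphragms of fenestrae and caveolae, read 4.93, 5.19 and 5.08 in vehicle and 4.66, 4.65 and 4.68 with OSU-CG5. The treated arrays agreed within 0.02 (SD) and lay below every vehicle array, at a difference of -0.41 (SE 0.12). Ecscr, a surface protein of endothelial cells, read 5.29, 5.28 and 5.30 in vehicle and 5.01, 4.95 and 4.56 with OSU-CG5. Here the vehicle arrays were the tight group, and the difference was -0.45 (SE 0.14). Mmrn2, an extracellular matrix protein of endothelium, read 6.13, 6.43 and 6.45 in vehicle and 6.08, 5.94 and 6.04 with OSU-CG5, a difference of -0.32 (SE 0.13). Of its 3 other probe sets 2 were also separate, at -0.36 and -0.31, and 1 was not, at 0.09.

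The tight junction protein Cldn5, given in full after its values were seen, passed the unadjusted threshold with overlapping groups. It read 6.42, 6.88 and 6.58 in vehicle and 6.52, 5.59 and 5.84 with OSU-CG5, so that treated replicate 1 lay within the vehicle range. Pecam1, the platelet and endothelial adhesion molecule most used to stain vessels, had overlapping groups and the smallest difference of the 13, -0.02, though whether it differed from the others was not tested. It read 4.02, 3.94 and 3.69 in vehicle and 3.86, 3.93 and 3.80 with OSU-CG5, near the low end of the scale, with a 95% interval from -0.31 to 0.27. The rest of the 13 did not pass the unadjusted threshold and had overlapping groups. They were the sialomucins Cd34 (-0.44) and Emcn (-0.27), the guidance receptor Robo4 (-0.29), the lectin Clec14a (-0.18), which binds Mmrn2, the junction protein Esam (-0.16) and Rasip1 (-0.16), needed for lumen formation.

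Secreted and enzymatic products of endothelium gave a median of -0.31 over 4 genes, 3 of them without overlap, beside 14.2% of all genes, and 1 past the unadjusted threshold, beside 8.43%. Egfl7, a secreted factor that guides vessel tubes, read 6.00, 6.35 and 5.83 in vehicle and 5.61, 5.48 and 5.44 with OSU-CG5. Its difference was -0.55 (SE 0.15; limma adjusted p = 0.183), and its 3 other probe sets were separate too, at -0.27, -0.43 and -0.18. On the last of these the groups almost touched, with a highest treated value of 5.281 and a lowest vehicle value of 5.284. Nos3, the endothelial nitric oxide synthase, differed by -0.29 (SE 0.17) and Gpihbp1, which anchors lipoprotein lipase in capillaries, by -0.19 (SE 0.12). Both were separate without passing the unadjusted threshold. Vwf, the clotting factor stored in endothelium, differed by -0.32 (SE 0.17), with overlap.

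Among the transcription factors, all 7 below 0 on average with a median of -0.29, 2 had separate groups, beside 14.2% of all genes. Both are SoxF genes. Sox7 read 4.89, 4.83 and 5.06 in vehicle and 4.29, 4.39 and 4.54 with OSU-CG5. Sox18, which acts upstream of Prox1 in lymphatic development, read 5.11, 5.28 and 5.14 in vehicle and 4.57, 4.89 and 4.59 with OSU-CG5. Their differences were -0.52 (SE 0.13; limma adjusted p = 0.16) and -0.50 (SE 0.13; limma adjusted p = 0.177). On the second probe set of Sox7 the groups overlapped, at -0.34 (SE 0.18). Sox17, the arterial member of the family, differed by -0.26 (SE 0.18), with OSU-CG5 replicate 2 inside the vehicle range. Among ETS factors, Fli1 differed by -0.52 (SE 0.25), Ets1 by -0.29 (SE 0.17) and Erg by -0.04 (SE 0.16), all with overlap. Their second probe sets differed by -0.39 (SE 0.19), -0.55 (SE 0.19) and -0.22 (SE 0.15), also with overlap. That of Ets1 passed the unadjusted threshold, while its further probe sets differed by -0.23 and -0.04. Fli1 and Ets1 are also expressed by leukocytes. Tal1, a factor shared by endothelial and blood cell development, differed by -0.03 (SE 0.17).

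**Figure D3:**
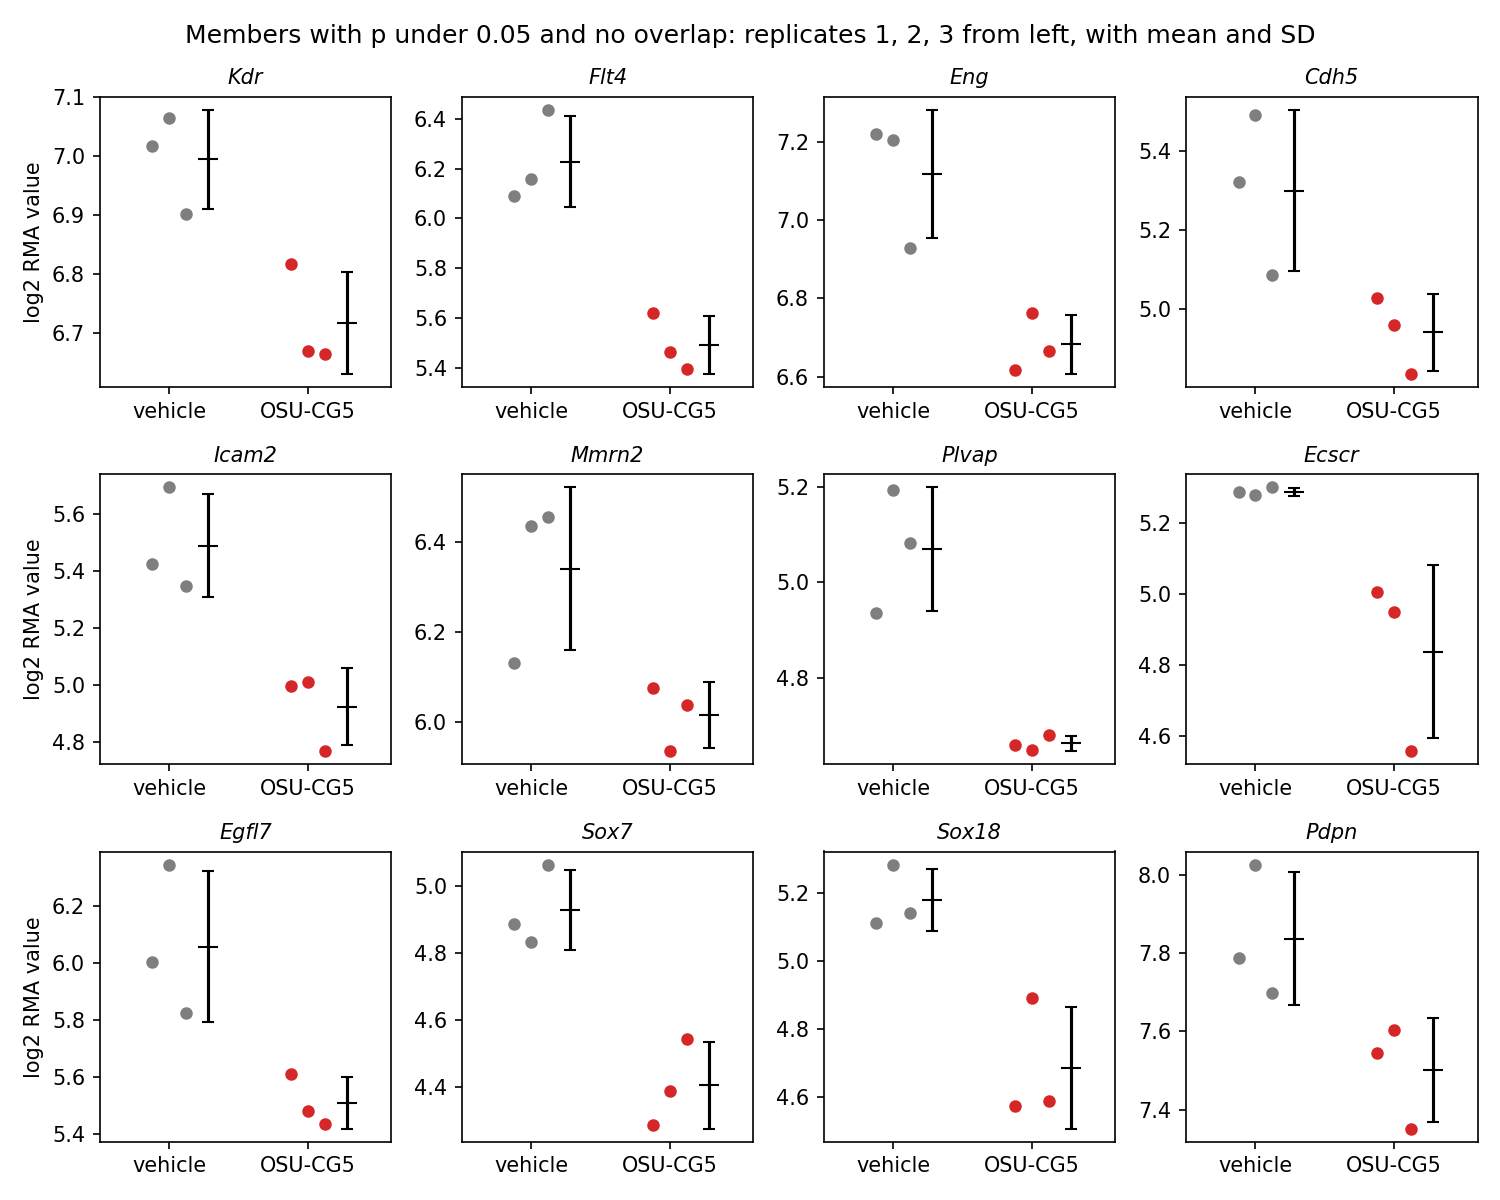
Log2 RMA values (y axis) of the 12 vessel genes whose groups did not overlap at an unadjusted p under 0.05, for vehicle in grey and OSU-CG5 in red, with the mean and SD of the 3 arrays in black. Every red point lies below every grey point, as the choice of genes requires, and the widest separation is that of Flt4.

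Lymphatic markers had the lowest median of the role groups, -0.49 over 4 genes, and the widest scatter among treated mice. Lyve1, a hyaluronan receptor of lymphatic endothelium and of some macrophages, read 7.34, 7.73 and 7.67 in vehicle and 7.51, 6.26 and 6.06 with OSU-CG5. Treated replicate 1 was as high as vehicle, while the other treated arrays were lower than every vehicle array by more than 1 unit. The difference was -0.97 (SE 0.34; limma adjusted p = 0.237), and on the second probe set, where the groups were separate, -0.49 (SE 0.14). Mmrn1, stored in platelets and made by lymphatic endothelium, was given in full after its values were seen and read 7.99, 7.45 and 8.07 in vehicle and 7.60, 7.08 and 6.88 with OSU-CG5. Treated replicate 1 again overlapped the vehicle range, at a difference of -0.65 (SE 0.23), and the second probe set, near the bottom of the scale, differed by -0.03. Pdpn, a mucin-type protein of lymphatic endothelium that fibroblasts and basal epithelium also make, read 7.79, 8.03 and 7.70 in vehicle and 7.55, 7.60 and 7.35 with OSU-CG5. Its groups were separate, with a difference of -0.34 (SE 0.13; limma adjusted p = 0.276). Prox1, the master factor of lymphatic fate, read 4.26, 4.12 and 4.14 in vehicle and 3.91, 4.06 and 3.90 with OSU-CG5. These values did not overlap but were low on the scale, and the difference was -0.22 (SE 0.11), with 0.08 and -0.17 on the other probe sets.

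The 6 mice were not alike within their groups. Averaged over the 46 genes, the level was 5.57, 5.69 and 5.59 in vehicle and 5.40, 5.32 and 5.24 with OSU-CG5. Vehicle replicate 2 was the highest vehicle array for 29 genes, and OSU-CG5 replicate 3 the lowest treated array for 24. OSU-CG5 replicate 1 read at least 0.5 above both other treated arrays for 6 genes, Lyve1, Fli1, Angpt1, Cldn5, Cd34 and Mmrn1, where 2.87% of all genes did so. For OSU-CG5 replicates 2 and 3 the same gap held for 1 gene, Sox17, and for 0 genes. Without OSU-CG5 replicate 1 the number of genes lower without overlap was 27, beside 22.4% of all genes in that smaller comparison. Of 10 fibroblast markers 3 showed that gap in OSU-CG5 replicate 1, and Lum read 8.90 there against 7.67 and 7.37 in the other treated mice. Of 4 fat cell markers 1 showed the gap, Adipoq, which read 5.17 there and 2.98 to 3.63 on the other arrays. The fat cell markers Lep, Retn and Cidec did not show it. These 2 genes and the gap were chosen after their values were seen, and the part of stroma or fat in the treated mice's scatter was not tested.

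**Figure D4:**
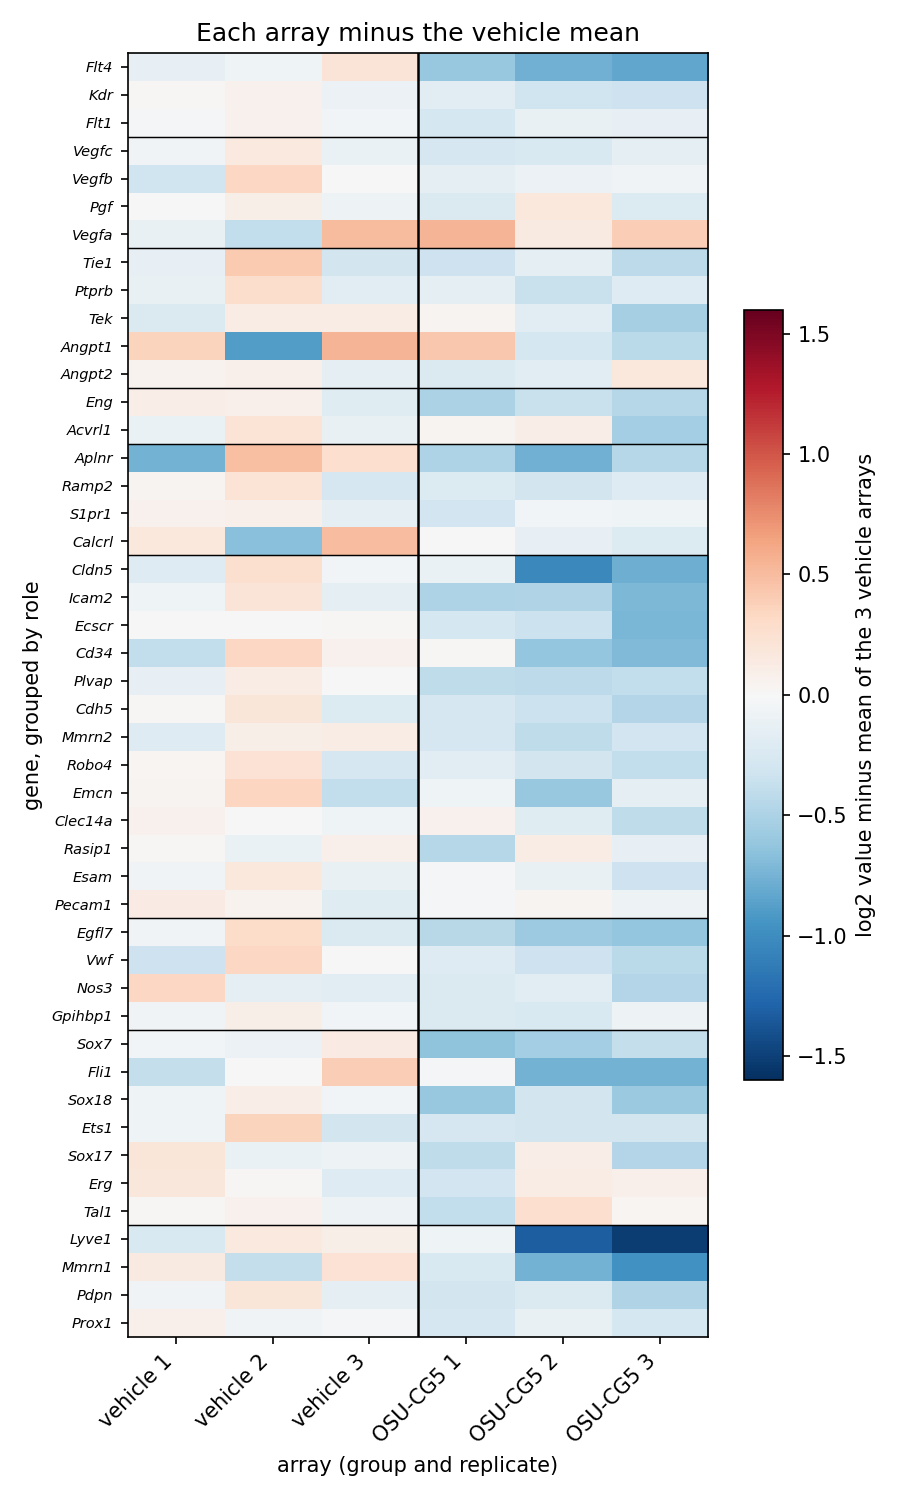
Value of each of the 46 genes (y axis, grouped by role) on each array (x axis) minus the mean of the 3 vehicle arrays, in log2 units, red for higher and blue for lower. OSU-CG5 replicate 3 reads below the vehicle mean for 42 genes, and OSU-CG5 replicate 1 is near the vehicle level for Lyve1, Cldn5, Cd34 and Fli1.

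Further probe sets of the same genes gave a partial check, since they share the arrays and the RNA but not the probes. Of 35 such probe sets 28 were below 0, where 65.7% of all genes were on their brightest probe set. Lower without overlap were 10, beside 12.7% of probe sets with a single symbol. At an unadjusted p under 0.05, 8 were lower, beside 7.5%, and 0 were higher. The second probe set of 19 of the 23 genes that have one differed in the same direction as the first. The share of all genes with that agreement was not counted. The median over these second probe sets was -0.27, beside -0.061 over all genes that have one. For Flt4, Eng, Cdh5 and Egfl7 every probe set was lower without overlap, though the groups almost touched on the dimmest probe set of Egfl7. The second probe set of Flt4 differed by -0.36 (SE 0.13), and that of Eng by -0.33 (SE 0.15).

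**Figure D5:**
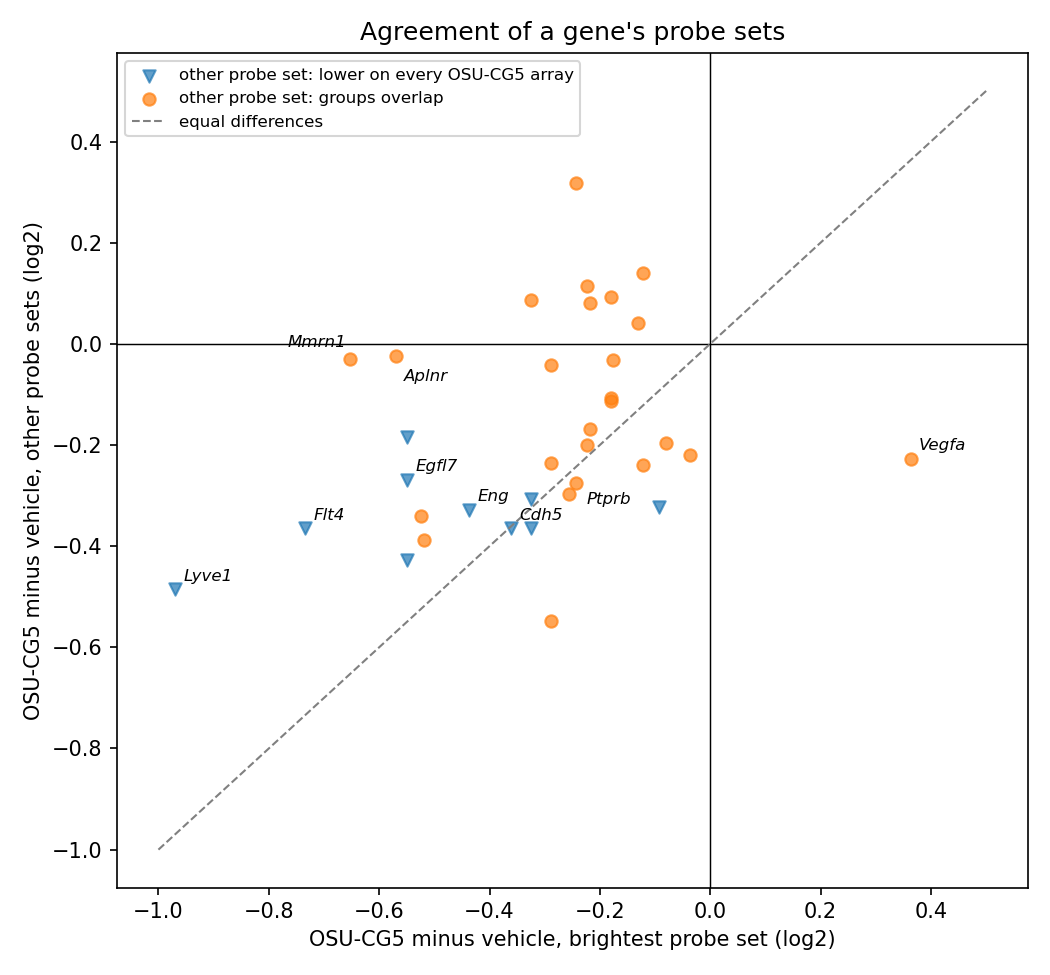
Difference between OSU-CG5 and vehicle (log2) on the brightest probe set of a gene (x axis) and on each of its 35 further probe sets (y axis), with triangles where the groups did not overlap and circles where they did. The triangles all lie below 0 on both axes, and Vegfa alone has a positive value on the x axis.

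Other genes of VEGF and angiopoietin signalling, from a separate list, also read lower for the most part. Like the members, this list and the next were chosen with earlier results of these data known. The median over 19 measured genes was -0.23, with 18 below 0. An unadjusted p under 0.05 was reached by 4 lower genes, beside 8.43% of all genes, and by 0 higher ones. These were the kinase Src (-0.53, SE 0.13), the adhesion adaptor Pxn (-0.44, SE 0.15), the ligand Angpt4 (-0.36, SE 0.13) and the VEGF co-receptor Nrp2 (-0.31, SE 0.12). Without vehicle replicate 2 the median of this list was -0.031. A wider set of 53 other endothelial genes had a median of -0.20, with 47 below 0. At that threshold 10 were lower and none was higher. Examples were the arterial ephrin Efnb2 (-0.60, SE 0.17), the Nos3 regulator Nostrin (-0.53, SE 0.16), Reln, made by lymphatic vessels (-0.69, SE 0.21), and the endothelin-converting enzyme Ece1 (-0.38, SE 0.12). None of the genes in either list passed the adjusted threshold.

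Lists of markers of other cell types, including cells beside or inside vessels, also had medians below 0. These ran from -1.56 in seminal vesicle to -0.08 in fat cells. The medians were -0.59 in skeletal muscle, -0.36 in leukocytes, -0.34 in platelets, -0.32 in macrophages and -0.29 in fibroblasts. Nerve and glia and smooth muscle gave -0.30 each. These lists and seminal vesicle lay below the -0.27 of the vessel genes. Pericytes gave -0.22, and prostate epithelium, mesothelium and red cells -0.20 each. Without vehicle replicate 2 the seminal vesicle and fat cell medians were -0.39 and -0.034. In that setting macrophages moved from -0.32 to -0.20 and nerve and glia from -0.30 to -0.16. Counts at an unadjusted p under 0.05 are given as lower, to be read beside 8.43% of all genes, and 0 were higher in any of these lists, beside 5.4%. The count in pericytes, 1 of 9, is near that background. Of 9 pericyte markers, the cells that wrap capillaries, 8 were below 0, with 1 lower, and mean levels were 5.66 to 5.78 in vehicle and 5.47 to 5.59 with OSU-CG5. All 9 platelet markers were below 0, with 3 lower, at mean levels of 5.26 to 5.29 and 4.94 to 5.02. All 9 macrophage markers were below 0, with 3 lower, at 6.58 to 6.98 and 6.30 to 6.56. Of 7 leukocyte markers 6 were below 0, with 3 lower, at 5.96 to 6.12 and 5.67 to 5.90. Ptprc, which defines leukocytes and was named after its values were seen, overlapped between groups, at 6.97 to 7.30 in vehicle and 7.09 to 7.43 with OSU-CG5. Of 10 fibroblast markers 9 were below 0, with 4 lower, and their mean levels overlapped at 8.38 to 8.46 and 7.91 to 8.38. Smooth muscle, with 7 of 9 below 0 and 5 lower, also overlapped, at 9.00 to 9.34 and 8.83 to 9.02. Skeletal muscle had 11 of 11 below 0, with 8 lower, at 5.25 to 5.82 and 4.55 to 5.15. Prostate epithelium had 9 of 11 below 0, with 2 lower, at 9.26 to 9.51 and 9.06 to 9.24. Red cell markers had 4 of 4 below 0, mesothelium 4 of 5, nerve and glia 3 of 3, fat cells 3 of 4 and seminal vesicle 6 of 6, with 0 lower in each. The part of each of these cell types in the lower vessel signal was not tested.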

How the data were processed

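Prostate RNA of 6 mice was read on 6 Affymetrix arrays, and groups were taken from each sample's source label, although the free-text descriptions of 2 treated samples carry other code numbers. Replicates were numbered in deposit order. Each deposited value is a probe set's log2 signal, summarised by the authors with RMA, per the submitters' processing notes. The software behind it is not given in the sources used here. RMA equalises the arrays' distributions, so a broad shift in 1 direction is partly removed. Values ran from 1.76 to 14.5, and array medians from 5.30 to 5.38.

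Without 64 Affymetrix controls, 45037 probe sets were tested. Platform annotation gave 34945 a single symbol, 932 several and 9160 none here. Of those with a single symbol, 34741 were found by gene number in a RefSeq table, and 0 symbols changed. Symbols are those of the platform annotation.

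OSU-CG5 minus vehicle was fitted with limma 3.58.1 (R 4.3.3; lmFit, eBayes, no filter, no covariate), adjusted over all 45037 probe sets by Benjamini-Hochberg at 0.05. SE is the moderated standard error and SD that of 3 arrays. The fit was tested on simulated data. Counts at an unadjusted p under 0.05, counts without overlap between groups, and medians are descriptions. The RNA control difference used a two-sided exact permutation test. No batch was given, and array number limits the precision. Depth has no count on arrays.

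The members and gene lists were chosen with earlier results of these data known. Every array is given for genes without overlap at an unadjusted p under 0.05 and for a fixed set of ligands, receptors and markers, and up to 4 genes of smallest p are named from each other list. Additional names are marked or follow from the text. Alternatives were minimum means of log2 6 or 4, median centring, quantile and cyclic loess normalization, other variance models, array weights, other probe sets, and leaving out each array. Upstream windows of 250 bases came from RefSeq promoters of GRCm38.p6. Figures were drawn with matplotlib.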

Additional observations from a re-analysis of the deposited data

How the results depend on the processing

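The median of the 46 genes stayed below 0 under all 18 alternatives run, from -0.33 to -0.20, and from -0.33 to -0.23 when single arrays were left out. Array quality weights gave 2 adjusted calls in place of 0, beside 121 of all 18193 genes in that setting. A minimum mean of log2 6 left 15 members to test, with 6 lower at an unadjusted p under 0.05 and 5 without overlap, beside 5.69% and 10.9% of all genes in that setting. Second brightest probe sets left 23, with 6 and 7, beside 6.61% and 11.5%. That minimum also gave medians of -0.094 for the angiopoietin and Tie group, -0.025 for pericytes, -0.39 for platelets and 0.068 for mesothelium. Of single genes, Vegfb was 0.048 with array weights. Vegfa was -0.23, Vegfc 0.11 and Prox1 0.080 on the second brightest probe set, and Vegfc also 0.11 without the _x_at and _s_at probe sets. Pecam1 was 0.041 after repeated quantile normalization and 0.067 after cyclic loess. The cause of these shifts was not tested beyond the fewer probe sets.

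Leaving out 1 array at a time, adjusted calls ranged from 0 to 1, members lower at an unadjusted p under 0.05 from 7 (without OSU-CG5 replicate 3) to 17, higher ones from 0 to 1 (Vegfa, without vehicle replicate 3) and members without overlap from 18 to 27. In these smaller comparisons the share of all genes lower at an unadjusted p under 0.05 also moved. It was 4.16% without OSU-CG5 replicate 3, where 7 members passed, and 11.7% without vehicle replicate 3, where 17 did. Adjusted calls over all genes ranged from 0 to 91. The share of all genes lower without overlap was itself 18.0% to 26.9%, above the 14.2% with all arrays. Medians ranged from -0.33 to -0.24 for VEGF receptors, -0.17 to 0.0077 for ligands, -0.30 to -0.10 for the angiopoietin and Tie group, -0.36 to -0.18 for Eng and Acvrl1, -0.29 to -0.16 for G protein-coupled receptors and -0.40 to -0.28 for transcription factors. In the other lists they ranged from -0.25 to -0.031 for VEGF and angiopoietin signalling, -0.22 to -0.14 for other endothelial genes, -0.28 to -0.10 for pericytes, -0.35 to -0.23 for leukocytes, -0.40 to -0.27 for platelets, -0.26 to -0.074 for prostate epithelium, -2.42 to -0.39 for seminal vesicle, -0.39 to -0.16 for nerve and glia, -0.42 to -0.20 for macrophages, -0.15 to -0.034 for fat cells and -0.32 to -0.14 for mesothelium. Vegfb ranged from -0.26 to 0.061, Angpt1 from -0.54 to 0.18 and Pecam1 from -0.12 to 0.045. No paired analysis was possible because the replicate numbers only follow deposit order and pair no mice.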
